A study of Mus musculus with 6 samples.

Results

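The 9 genes described here encode regulators that act when male germ cells pass through meiosis and become spermatids: Crem, Fhl5, Tbpl1, Tbp, Gtf2a1l, Taf7l, Rfx2, Rfx3 and Pou5f2. They were chosen by name, as CREM, TBP-like and RFX regulators of late spermatogenesis, out of 23361 genes in the deposited table. The data came from sequencing of polyadenylated RNA from whole testes of 6 C57BL/6J males, about 120 days old. All 6 were homozygous for Ret (V805A), a substitution in the GDNF receptor kinase that makes it sensitive to 1NaPP1-HCl. The 3 control mice received daily injections of vehicle, a mixture of saline, cremophor and ethanol, for 9 days. The 3 inhibitor mice received 1NaPP1-HCl in that vehicle on the same 9 days. Testes were taken on day 14, after 5 days without injections. No mice without the substitution were among the samples, and for this reason an action of 1NaPP1-HCl through Ret and one through another target cannot be told apart. Each library is labelled as a separate mouse.

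Haploid male germ cells use a transcription programme of their own. CREM is a cyclic AMP-responsive factor that binds the CRE element and switches on genes of spermatids, and in these cells it is activated by binding of FHL5, also called ACT, rather than by phosphorylation. The general machinery is also altered: TBPL1 is a relative of the TATA-binding protein TBP, GTF2A1L replaces the large TFIIA subunit GTF2A1, and TAF7L replaces the TFIID subunit TAF7. RFX2 and RFX3 bind the X-box, an inverted repeat found in promoters of genes for cilia and flagella, and RFX2 is needed for spermatids to grow a flagellum. POU5F2, also called SPRM1, is a POU domain factor expressed in male germ cells. Crem makes both activators and repressors, among them ICER, from separate transcripts, and a gene total does not separate them.

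In GENCODE M21 on GRCm38 (mm10) 8 of the 9 genes are placed as follows, Crem not being given here. Fhl5 lies at chr4:25199908-25242876 (reverse strand). Of the TBP group, Tbpl1 at chr10:22703879-22731938 (reverse strand) stands apart from Tbp at chr17:15499888-15528379 (forward strand) and Gtf2a1l at chr17:88668660-88715152 (forward strand), and the X-linked member is Taf7l at chrX:134460118-134476490 (reverse strand). The others are Rfx2 at chr17:56775897-56831013 (reverse strand), Rfx3 at chr19:27761721-28011166 (reverse strand) and Pou5f2 at chr13:78024902-78026295 (forward strand).

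Promoter sequences are shown for Tbpl1 and Pou5f2, the members with the smallest p between the groups. Those of Gtf2a1l, Rfx2 and Rfx3 are shown because they hold GTTGCC, the core of 1 arm of the X-box. Of these 3 only Gtf2a1l also holds GTTGC and GCAAC as an inverted repeat within 0 to 4 bases, a limit chosen after seeing the data. In Rfx2 GCAAC also follows GTTGC, at a spacing just past that limit, and is left in lower case. The sequences came from RefSeq (GRCm38.p6), whose table matched 8 of the 9 members, Crem excepted. Each of the first 4 runs gives the 250 bases before the start in RefSeq, on the gene's own strand. RefSeq and GENCODE place some starts differently: the Tbpl1 run lies inside its GENCODE gene, and the last 5 bases of the Rfx2 run lie inside the GENCODE gene of Rfx2. Capitals mark GTTGCC, the core of each X-box arm, and in Gtf2a1l also GTTGC facing GCAAC across 3 bases.
Tbpl1 (chr10:22731448-22731697, reverse strand): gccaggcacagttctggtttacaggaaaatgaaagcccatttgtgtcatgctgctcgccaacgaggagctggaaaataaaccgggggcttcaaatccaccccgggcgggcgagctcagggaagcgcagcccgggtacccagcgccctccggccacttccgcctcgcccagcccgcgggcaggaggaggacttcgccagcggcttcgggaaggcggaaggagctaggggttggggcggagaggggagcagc
Pou5f2 (chr13:78024652-78024901, forward strand): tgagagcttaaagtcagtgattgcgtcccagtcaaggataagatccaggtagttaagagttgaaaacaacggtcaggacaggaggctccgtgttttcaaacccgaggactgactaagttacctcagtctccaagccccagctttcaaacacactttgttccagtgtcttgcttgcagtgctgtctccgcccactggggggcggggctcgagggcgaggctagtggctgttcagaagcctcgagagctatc
Gtf2a1l (chr17:88668410-88668659, forward strand): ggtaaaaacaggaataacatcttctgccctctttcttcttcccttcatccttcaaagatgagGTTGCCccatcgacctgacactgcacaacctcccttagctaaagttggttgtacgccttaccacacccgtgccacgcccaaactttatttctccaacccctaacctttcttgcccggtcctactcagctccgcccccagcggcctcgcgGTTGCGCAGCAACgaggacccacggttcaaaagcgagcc
Rfx2 (chr17:56831009-56831258, reverse strand): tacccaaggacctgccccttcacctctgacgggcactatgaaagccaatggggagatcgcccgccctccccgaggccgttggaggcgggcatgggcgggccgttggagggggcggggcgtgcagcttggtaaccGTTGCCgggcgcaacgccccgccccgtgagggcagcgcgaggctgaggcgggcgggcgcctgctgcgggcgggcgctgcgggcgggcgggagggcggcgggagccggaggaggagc
Rfx3 (chr19:28011123-28011149, reverse strand, a site after the start, with GCAAC and GTTGC, 1 base apart, in capitals): gagttataGCAACCGTTGCcttgtgaa

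The window searched ran from 250 bases before to 50 after each start, on both strands, and patterns could overlap. GTTGCC stood in the promoters of Gtf2a1l, Rfx2 and Rfx3, and in 12.5% of all 32851 promoters of this length. GTTGC followed within 0 to 4 bases by GCAAC stood in Gtf2a1l, at position -39 from the start, and in 0.447% of all promoters. The reverse order, GCAAC and then GTTGC within 0 to 4 bases, stood in Rfx3 from base 26 of the transcript, overlapping its GTTGCC, and in 0.107% of all promoters. TATAAA was found in Taf7l, at position -148 and on the other strand at -150, and in 13.6% of promoters. The full CRE, TGACGTCA, was in none of the 8 matched members and in 1.79% of promoters. Its shorter part TGACG, which the full CRE contains, was in Tbp, Rfx2 and 20.8% of promoters. These are matches of letters and show no binding.

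The libraries held between 23144295 and 43127892 fragments assigned to genes, so that a gene at 1 CPM (CPM being a fragment count scaled to library size) rested on 23.1 to 43.1 fragments. Mouse inhibitor 3 stood apart from the other inhibitor mice: its pairs had chi-square values of 11.54 and 12.46 per degree of freedom, against 4.09 to 5.83 for the other pairs within groups. Ret itself fell, from 2.17 ± 0.294 to 0.579 ± 0.086 CPM (SD, n = 3 per group; edgeR adjusted p = 0.0199), and 26 of 16658 tested genes passed in all. Markers of meiotic and haploid germ cells were abundant in every library, which fits the label testis: Ldhc stood at 3576 CPM and Prm2 at 4090 CPM in controls. Germ cell regulators in whole testis also depend on which cells are present, and in such bulk samples fewer cells of a type and less RNA per cell cannot be told apart.

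Measured per transcript length, the 9 genes spanned from among the most abundant transcripts of the testis to a moderate level. In FPKM (fragments scaled to transcript length and library size, as deposited), the coactivator gene Fhl5 stood highest, at 276 ± 39.6 (SD over 6 mice, range 238 to 345), above 98.4% of all genes in the table. The TFIIA subunit gene Gtf2a1l followed at 207 ± 5.92, Rfx2 at 134 ± 6.38, Tbpl1 at 123 ± 12.5 and Crem at 92.4 ± 8.35 FPKM. Tbp, the ubiquitous TATA-binding protein, stood at 63.9 ± 3.48 FPKM, above 91.8% of genes. Pou5f2 stood at 26.9 ± 2.97, Taf7l at 21.9 ± 1.12 and Rfx3 at 5.76 ± 0.328 FPKM. The ranges over the 6 mice of neighbours in this order did not overlap, except for Rfx2 and Tbpl1. In controls Rfx2 (135 to 142 FPKM) lay above Tbpl1 (110 to 116 FPKM), while in inhibitor mice the ranges met (123 to 136 and 124 to 139 FPKM). The order of these genes depends on the lengths assigned to them. In CPM per kilobase of the longest annotated transcript, over all 6 mice, Tbpl1 (117) stood above Rfx2 (103).

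**Figure D1:**
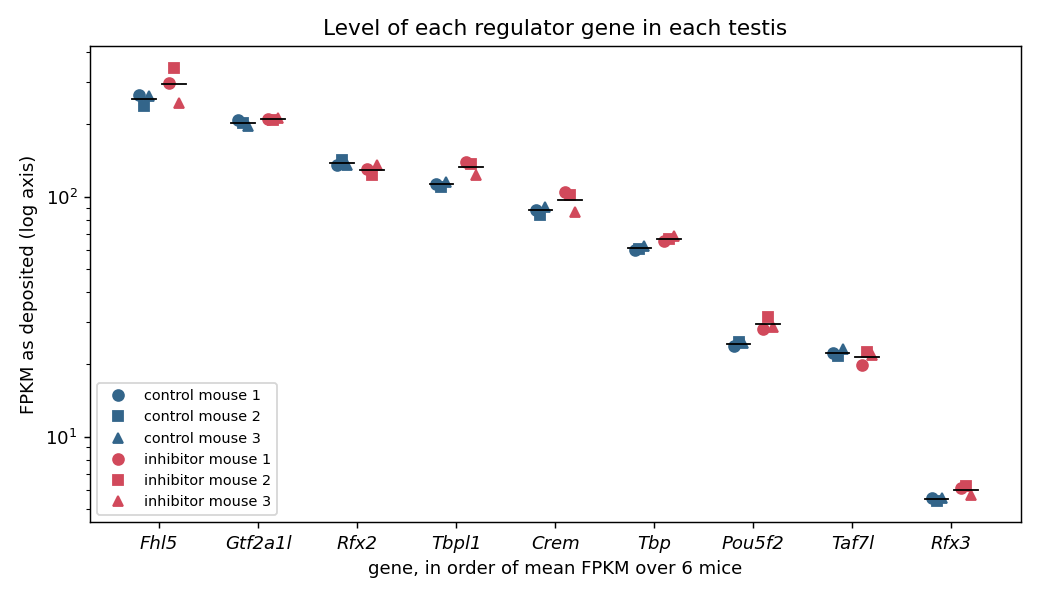
FPKM as deposited (log axis) of the 9 genes in each mouse, with colour for group, marker shape for mouse number and a black line at each group's mean. Levels run from 5.41 FPKM in Rfx3 to 345 FPKM in Fhl5. In Tbpl1, Tbp, Pou5f2 and Rfx3 all inhibitor mice lie above all controls, as they do by CPM in 11% of all genes tested. Counting both directions, the groups are apart by CPM in 22.9% of all genes tested. None of the 9 genes passed the threshold on adjusted p in edgeR.

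In the general machinery, Gtf2a1l, Taf7l and Tbpl1 each exceeded the related gene Gtf2a1, Taf7 or Tbp in every mouse. These values from whole testis do not separate the cells that express each gene. Gtf2a1l was 18.03 ± 0.8 times as high as Gtf2a1 in controls and 20.0 ± 0.289 times in inhibitor mice (ratio of FPKM, SD, n = 3 per group), with Gtf2a1 itself at 11.3 and 10.6 FPKM. Taf7l exceeded Taf7 by 3.10 ± 0.126 and 3.05 ± 0.034 times. Tbpl1 exceeded Tbp by 1.86 ± 0.030 and 2.00 ± 0.173 times. That ratio depends on the length assigned to Tbp: in CPM per kilobase of the longest annotated transcript Tbpl1 stood at 117 and Tbp at 8.34. Crem stood at 37.8 ± 2.28 and 41.4 ± 4.33 times the level of Creb1, the related and widely expressed CRE-binding factor, and Rfx2 at 25.0 ± 1.13 and 21.6 ± 1.95 times that of Rfx3.

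GDNF acts through Ret on spermatogonial stem cells, and the treatment was aimed at that receptor. The question for the 9 regulators of later germ cells is whether their RNA levels differed between the groups. Of the 9 genes, 7 had higher and 2 lower estimates in the inhibitor mice, with log2 fold changes from -0.09 to 0.26 and a median of 0.13, against -0.004 over all genes tested, of which 49% had an estimate above 0. All 9 passed the filter on low counts. None passed the threshold (an adjusted p of 0.05 in edgeR's quasi-likelihood test, Benjamini-Hochberg over all genes), where 0.156% of all genes did. At an unadjusted p under 0.05, 4 were higher and 0 lower, against 9.43% and 8.48% of all genes (17.9% in either direction). DESeq2 called 2 of them, Tbpl1 and Pou5f2, in both cases higher, where it called 3.2% of its genes higher and 4.65% in either direction. Limma-voom, limma on log2(FPKM + 1) and limma on log2(FPKM + 0.1) called 0 of the 9, and 0.084%, 0% and 0.006% of all genes. With at least 50 counts required in 3 libraries edgeR called 0 of the 9 and 0.0712% of all genes. With the trend of each library on length and GC content removed for matched transcripts, it called 0 of the 9 and 0.09%. In 4 genes (Tbpl1, Tbp, Rfx3 and Pou5f2) the CPM of all inhibitor mice lay above that of all controls, as in 11% of all genes. The groups did not overlap in either direction in 22.9%. With the length and GC trend removed for the longest transcripts the median of the 9 was 0.087. For matched transcripts the middle estimate of the 9 was that of Tbp, 0.047.

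Without mouse inhibitor 3, the one that stood apart, 4 of the 9 passed: Tbpl1 (log2 fold change 0.29, edgeR adjusted p = 0.00035), Crem (0.24, 0.00279), Fhl5 (0.33, 0.0134) and Pou5f2 (0.28, 0.0144). In that fit 14.3% of all genes passed and 8.71% passed as higher. With any other mouse left out, 0 of the 9 passed. Then 0% of all genes passed too, except without control 3 (0.0596%).

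**Figure D2:**
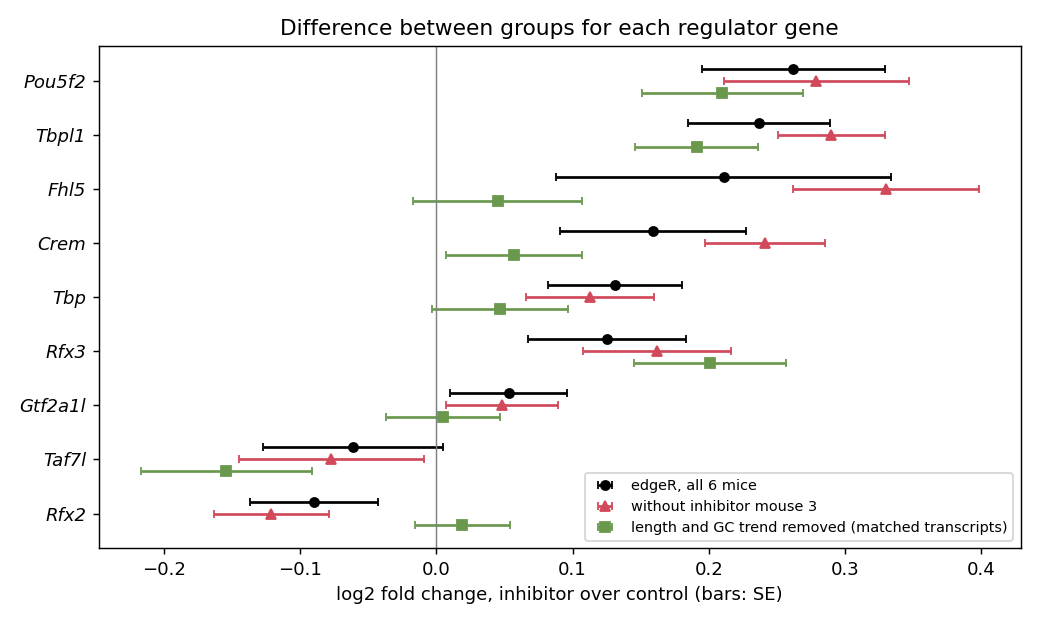
log2 fold change (inhibitor over control) with its SE for each of the 9 genes, with all mice (black), without mouse inhibitor 3 (red) and after correction for the length and GC content of matched transcripts (green). Pou5f2 and Tbpl1 stay between 0.19 and 0.29 in all 3 fits, while Fhl5 moves from 0.33 to 0.045 and Rfx2 from -0.12 to 0.02.

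Crem, the CRE-binding factor, stood at 189, 181 and 194 CPM in controls 1, 2 and 3 and at 225, 220 and 185 CPM in inhibitor mice 1, 2 and 3. Mice inhibitor 1 and 2 lay above all controls, and inhibitor 3 lay among them. The log2 fold change was 0.16 (SE 0.068, edgeR adjusted p = 0.25). It was 0.09 with the length and GC trend removed for longest transcripts and 0.06 for matched transcripts. Gm6225, a locus on the opposite strand that shares 472 exon bases with Crem, had 193 to 368 fragments per library against 4715 to 7942 for Crem.

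Fhl5, the coactivator of CREM, varied most among the inhibitor mice. It stood at 243, 220 and 243 CPM in the controls and at 274, 318 and 226 CPM in the inhibitor mice. Again inhibitor 1 and 2 were the highest, and inhibitor 3 lay within the control range. Its log2 fold change was 0.21 (SE 0.123, edgeR adjusted p = 0.427), with the largest SE of the 9. With the length and GC trend removed it was 0.04 for longest and 0.045 for matched transcripts.

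Of the CREM and CREB partners, 11 genes were tested and none passed in edgeR, with 1 higher and 2 lower at an unadjusted p under 0.05. DESeq2 called 1 of them, lower. Crebbp, which encodes the acetyltransferase coactivator CBP, was at 54.5 ± 4.43 CPM in the control group and 41.4 ± 5.60 CPM after inhibitor (log2 fold change -0.39, edgeR adjusted p = 0.103). Fhl4, a testis-expressed relative of Fhl5, was at 2853 ± 79.8 and 3129 ± 51.5 CPM (0.13, adjusted p = 0.123 in edgeR), and Fhl3 at 1.37 and 0.885 CPM. The median log2 fold change of these partners was 0.02.

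Genes known to need CREM in spermatids had a median log2 fold change of 0.15, with 11 of 12 estimates above 0. None passed in edgeR, and 6 were higher at an unadjusted p under 0.05, as were 9.43% of all genes. DESeq2 called 3 (all higher), where it called 3.2% of its genes higher, and limma-voom 0. Without inhibitor 3, 7 of the 12 passed in edgeR, where 14.3% of all genes did. With the length and GC trend removed the median was 0.087. Crisp2, a secretory protein of the acrosome and tail, went from 1877 ± 96.4 to 2291 ± 204 CPM (log2 fold change 0.29, edgeR adjusted p = 0.0928). Akap4, the main protein of the fibrous sheath, had a log2 fold change of 0.17 (adjusted p = 0.0928 in edgeR) and the protamine gene Prm2 of 0.16 (0.104). Of the 12 genes, 6 are also in the list of elongating spermatid markers.

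Tbpl1, the TBP-related factor, had the smallest p of the 9 and ranked 129 among all genes tested. The controls stood at 308, 301 and 315 CPM and the inhibitor mice at 380, 373 and 336 CPM. All 3 inhibitor mice lay above all controls, inhibitor 3 by the least. The log2 fold change was 0.24 (SE 0.052, edgeR adjusted p = 0.0826), a level 1.18 times that of controls. It passed with DESeq2 (adjusted p = 0.0107), which called 3.2% of its genes higher. It also passed without the filter on low counts in edgeR (adjusted p = 0.0474, where 0.559% of genes passed) and without inhibitor 3. In the other 16 of 19 alternatives it did not pass. With the length and GC trend removed its log2 fold change was 0.17 for longest and 0.19 for matched transcripts (edgeR adjusted p = 0.141 and 0.131). Slc2a12, on the opposite strand, shares 407 exon bases with Tbpl1 and had 107 to 235 fragments per library against 7685 to 13225.

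Tbp, which recognises the TATA box in all cells, stood at 100.2, 101 and 104 CPM in controls and at 109, 111 and 114 CPM in inhibitor mice. The groups did not overlap, and inhibitor 3 was the highest here. Its log2 fold change was 0.13 (SE 0.049, edgeR adjusted p = 0.19). This estimate depended on the length and GC content assigned to Tbp. It was 0.19 with the trend removed for its longest annotated transcript (12794 nt) and 0.05 for the transcript of 1891 nt, the nearest to the length that the deposited values imply. Pdcd2, on the opposite strand, shares 2582 exon bases with Tbp and had 209 to 326 fragments per library.

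Gtf2a1l, the germ cell TFIIA subunit, was the steadiest of the 9 genes across mice (SD of 0.04 over 6 mice on the log2 CPM scale). It stood at 302, 293 and 285 CPM in controls and at 306, 301 and 307 CPM in inhibitor mice, with overlapping groups. The log2 fold change was 0.05 (SE 0.043, edgeR adjusted p = 0.552). The estimate was -0.008 with the length and GC trend removed.

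Taf7l, the X-linked TFIID subunit gene, stood at 39.3, 38.3 and 41.1 CPM in controls and at 35.3, 39.8 and 38.7 CPM in inhibitor mice. Its lowest value was in inhibitor 1 and the groups overlapped. The log2 fold change was -0.06 (SE 0.066, edgeR adjusted p = 0.666). After removal of the trend on length and GC it was -0.17 for longest and -0.15 for matched transcripts (adjusted p = 0.27 and 0.313 in edgeR).

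A list of the other subunits of TFIID and TFIIA, which also held Gtf2b, the gene of the separate factor TFIIB, had 19 genes tested. None passed in edgeR, with 5 higher (Gtf2b among them) and 5 lower at an unadjusted p under 0.05. Without inhibitor 3, 5 of the 19 passed, where 14.3% of all genes did. DESeq2 called 2, of which 1 was higher, and limma-voom 0. Taf1, the largest TFIID subunit, was at 19.7 ± 0.249 CPM in the control group and 15.5 ± 0.702 CPM after inhibitor (log2 fold change -0.34, edgeR adjusted p = 0.0826). Taf9 was at 663 ± 25.2 and 773 ± 52.1 CPM (0.22, adjusted p = 0.0928 in edgeR), and Taf2 at 102 ± 5.28 and 90.3 ± 2.75 CPM (-0.17, 0.142). The median over the 19 was -0.004. Genes known to need TBPL1 in spermatids had a median of 0.08 over 5 tested, none passed in edgeR and 1 was higher at an unadjusted p under 0.05. Neither DESeq2 nor limma-voom called any of the 5. Tnp1, a transition protein, had a log2 fold change of 0.44 with an SE of 0.185 and overlapping groups (edgeR adjusted p = 0.315). The protamine gene Prm1 was at 0.20 (0.216) and the chaperone gene Hspa1l at 0.08 (0.311). Tnp1, Prm1 and Gapdhs of this list are also among the genes known to need CREM. Tnp1, Prm1 and Acr are also in the lists of spermatid markers.

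Rfx2 had the lowest estimate of the 9. It stood at 430, 456 and 433 CPM in controls and at 416, 393 and 430 CPM in inhibitor mice. Inhibitor 1 and 2 lay below all controls, while inhibitor 3 lay within their range. The log2 fold change was -0.09 (SE 0.047, edgeR adjusted p = 0.34), and it was 0.02 with the length and GC trend removed for matched transcripts.

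Rfx3, the ciliary relative of Rfx2, went the other way. It stood at 50.7, 49.5 and 50.5 CPM in controls and at 55.7, 56.7 and 52.0 CPM in inhibitor mice, without overlap. The log2 fold change was 0.13 (SE 0.058, edgeR adjusted p = 0.282), and 0.20 with the trend removed for matched transcripts (adjusted p = 0.17).

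Among the other RFX genes and the cofactors Rfxank and Rfxap, 8 were tested and none passed in edgeR, with 0 higher and 1 lower at an unadjusted p under 0.05. DESeq2 and limma-voom called none of them. Rfx1, a widely expressed member, was at 150.3 ± 6.06 CPM in the control group and 135 ± 12.3 CPM after inhibitor (log2 fold change -0.16, edgeR adjusted p = 0.232). Rfx8 was at 0.11 and Rfxank at -0.21, and the list median was -0.09. Genes taken as RFX-dependent, 13 of cilia and flagella and the testis linker histone gene Hist1h1t, had a median of -0.02 over 14 tested. None of them passed in edgeR, DESeq2 or limma-voom, and 2 were higher at an unadjusted p under 0.05: Ift20 (0.24) and Bbs4 (0.19), which act in transport along the cilium. Dync2li1, a subunit of the retrograde ciliary motor, was at 0.13.

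Pou5f2 had the largest fold change of the 9. It stood at 28.8, 30.3 and 29.9 CPM in controls and at 34.0, 38.2 and 34.7 CPM in inhibitor mice. The groups did not overlap, and inhibitor 2 was the highest. Its log2 fold change was 0.26 (SE 0.067, edgeR adjusted p = 0.103), and it passed with DESeq2 (adjusted p = 0.0442). Without inhibitor 3 it was 0.28, and with the trend removed for matched transcripts 0.21 (edgeR adjusted p = 0.174). The gene lies inside Fam172a on the same strand, with which it shares 0 exon bases. Fam172a was at -0.12 (adjusted p = 0.471 in edgeR).

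Of the other POU genes 7 were tested. None passed in edgeR, DESeq2 or limma-voom, and 1 was lower at an unadjusted p under 0.05. This was Pou3f1, at 1.42 ± 0.431 and 0.702 ± 0.403 CPM (log2 fold change -0.98, edgeR adjusted p = 0.203), a factor known from cultured spermatogonia to respond to GDNF. Pou2f2 stood at -0.20 and Pou4f1 at -0.30. Among 15 other regulators of meiosis and spermatids the median was 0.005 and none passed in edgeR, DESeq2 or limma-voom. At an unadjusted p under 0.05, 3 of these were higher and 1 lower. The chromatin reader gene Brdt had a log2 fold change of 0.13, Spz1 of 0.16 and the immediate early factor gene Egr4 of -0.42 (edgeR adjusted p = 0.154, 0.127 and 0.118).

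A ratio of genes within a library does not depend on how libraries are scaled. It can still carry the trend of each library on length and GC content, which was not removed from the ratios. The log2 ratio of Rfx2 to Rfx3 counts was 3.08, 3.20 and 3.10 in controls and 2.90, 2.79 and 3.05 in inhibitor mice, a difference of -0.22 without overlap. That of Gtf2a1l to Gtf2a1 was 2.16, 2.28 and 2.21 in controls and 2.38, 2.34 and 2.37 in inhibitor mice, a difference of 0.15 without overlap. Both gave p = 0.1 in an exact two-sided permutation test, the smallest value that 3 against 3 mice allow, and 0.25 after adjustment over the 5 ratios tested. The ratios of Tbpl1 to Tbp (difference 0.10, exact permutation p = 0.4), Crem to Creb1 (0.14, p = 0.3) and Taf7l to Taf7 (-0.02, p = 0.6) overlapped between the groups. In inhibitor 3 the Tbpl1 to Tbp ratio was 1.56, below all controls, while inhibitor 1 and 2 lay above all controls.

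**Figure D3:**
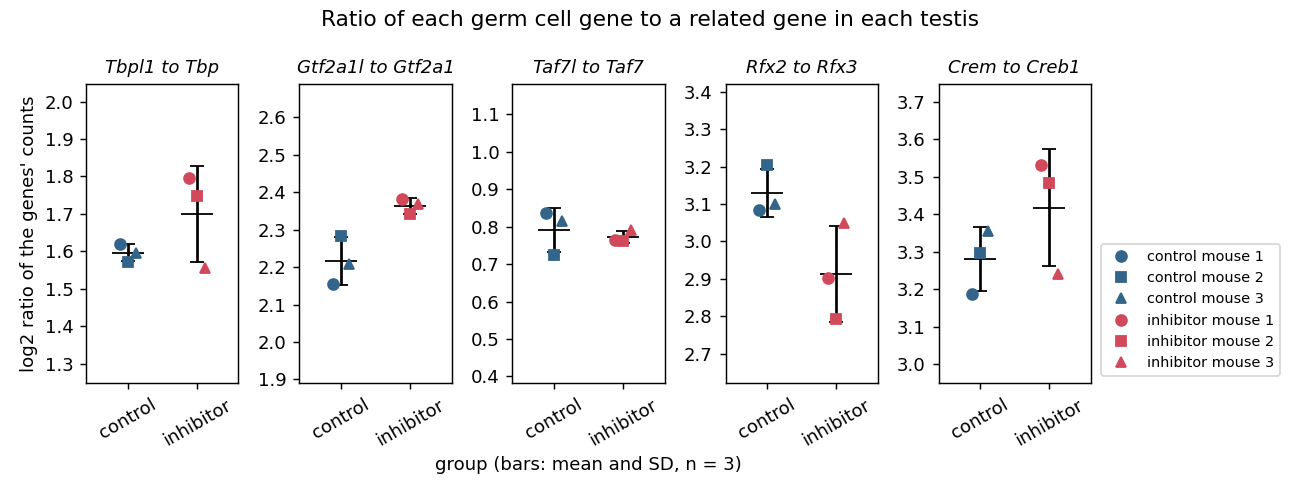
log2 ratio of fragment counts (vertical axis, each panel spanning the same range of log2 units) for 5 pairs of genes in each mouse, with the mean and SD of each group (n = 3). Inhibitor mice lie above controls for Gtf2a1l to Gtf2a1 and below them for Rfx2 to Rfx3, and overlap them in the other 3 pairs.

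Some cell type markers differed alongside these genes. Of 9 tested markers of undifferentiated spermatogonia 3 fell in edgeR (Ret, Zbtb16 and Lin28a), and their summed level was between 102 and 104 CPM in controls and between 77.0 and 91.0 CPM in inhibitor mice. DESeq2 called 1 of these 9, limma-voom 3 and limma on log2(FPKM + 1) 0. No gene of any list passed in edgeR without control 1, control 2, inhibitor 1 or inhibitor 2, so these calls were lost there. Without inhibitor 3, 6 of these 9 and 3 of 8 differentiating spermatogonia markers passed, where 14.3% of all genes did. Of 8 markers of differentiating spermatogonia 1 fell, the cyclin gene Ccnd2, and 7 had estimates below 0. Their sum was higher in the inhibitor mice, ranging over the controls from 591 to 597 CPM and over the inhibitor mice from 603 to 640.2 CPM, with Dmrtb1 (log2 fold change 0.11) making up 88.7% of it. Summed spermatocyte markers ranged over the controls from 5845 to 6152 CPM and over the inhibitor mice from 6377 to 6712 CPM, a log2 difference of 0.12, with Ldhc making up 59.6% of the sum. None of these 10 passed in edgeR. At an unadjusted p under 0.05, 7 were higher and 1 lower, against 9.43% and 8.48% of all genes. DESeq2 called 2 (both higher), where it called 3.2% of its genes higher. Without inhibitor 3, 5 of the 10 passed. Summed round spermatid markers differed by 0.10 (2123 to 2222 and 2236 to 2412 CPM) and elongating spermatid markers by 0.15 (21310 to 22150 and 23210 to 24550 CPM). None of the 10 markers of either list passed in edgeR. At an unadjusted p under 0.05 there were 5 and 6, against 17.9% of all genes. DESeq2 called 1 and 3, against 4.65% of its genes. Without inhibitor 3, 4 and 6 passed. With the length and GC trend removed the median log2 fold change was 0.021 in place of 0.18 for spermatocyte markers, 0.013 in place of 0.086 for round and 0.087 in place of 0.152 for elongating spermatid markers. Among the members, Crem (0.16), Tbp (0.13) and Rfx3 (0.13) had log2 fold changes near the log2 differences of these 3 sums. Tbpl1 (0.24), Pou5f2 (0.26) and Fhl5 (0.21, SE 0.123) had larger ones and Gtf2a1l (0.05) a smaller one. Rfx2 (-0.09) and Taf7l (-0.06) went the other way. With the length and GC trend removed for longest transcripts Tbpl1 stood at 0.17, Pou5f2 at 0.20, Fhl5 at 0.04 and Gtf2a1l at -0.008. The part of these markers in the members' values was not tested.

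Markers of other cells overlapped or differed less evenly. Summed Sertoli cell markers ranged over the controls from 1419 to 1456 CPM and over the inhibitor mice from 1343 to 1603 CPM, Leydig cell markers from 995.8 to 1260 and 939 to 1132 CPM, and peritubular myoid markers from 325 to 381 and 328 to 345 CPM. Actg2 made up 56.0% of the myoid sum and had the only estimate above 0 (0.09) among 7 markers, whose median log2 fold change was -0.22. Endothelial markers ranged from 42.0 to 44.9 and 33.6 to 43.3 CPM. Macrophage markers stood at 397 to 412 and 443 to 475 CPM, of which Aif1 alone made up 80.0%, a gene not confined to macrophages in testis. Lymphocyte markers stood at 6.70 to 7.21 and 8.05 to 8.31 CPM. In none of these 6 lists did a gene pass in edgeR or limma-voom; DESeq2 called 2 Sertoli markers and 1 macrophage marker. Without inhibitor 3, 5 of 10 Sertoli and 2 of 8 macrophage markers passed, 1 each of the Leydig, myoid and endothelial lists and 0 lymphocyte markers. In that fit 14.3% of all genes passed. No marker in any list was at 0 in all libraries, and their part in the members' values was not tested.

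**Figure D4:**
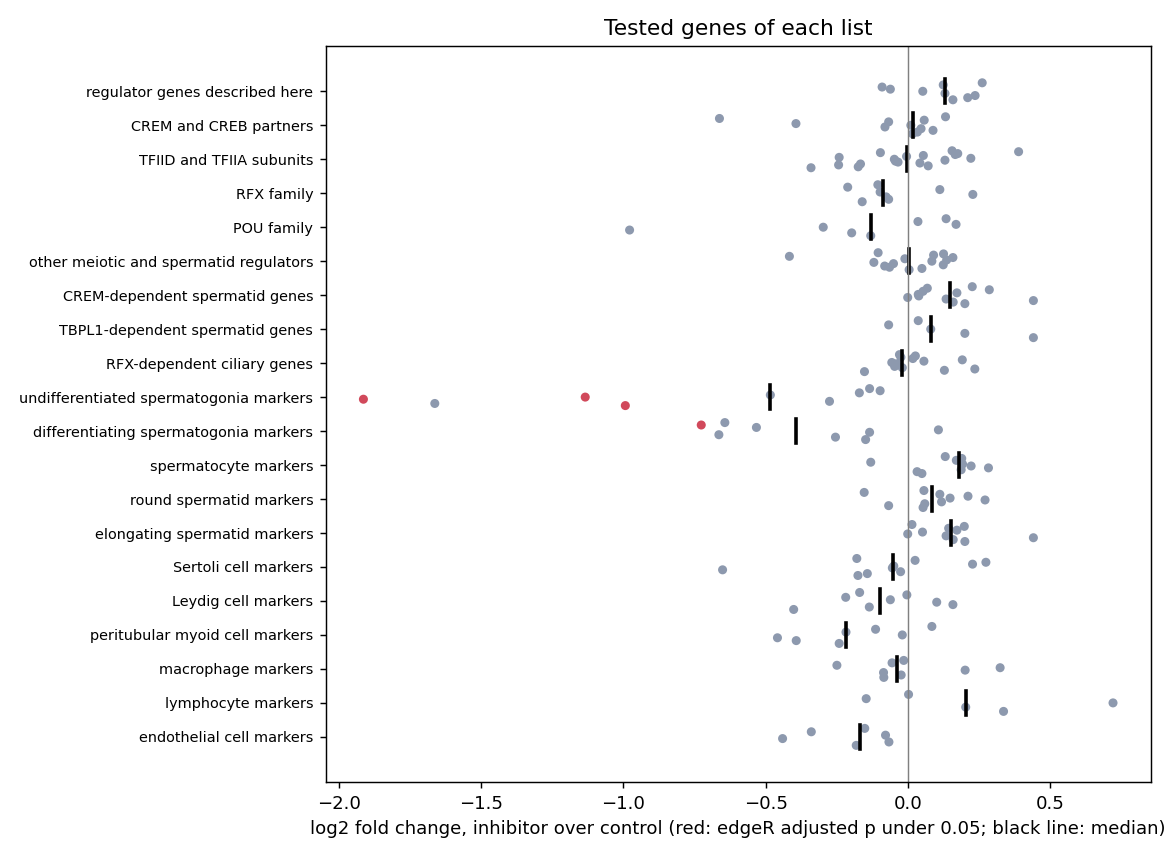
log2 fold change (inhibitor over control) of each tested gene in the 9 regulators, the context lists and the marker lists, with a black line at each median and red points for genes past an edgeR adjusted p of 0.05. The 9 regulators have a median of 0.13 and no red point, (the TFIID and TFIIA list includes Gtf2b, the ciliary list Hist1h1t), and the 4 red points are spermatogonial markers with log2 fold changes from -1.91 to -0.73.

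The pattern over the 6 mice was compared with that of 9331 other named genes by the root mean square difference of log2 CPM after centring each gene on its own mean. Nearest to Crem were Rnf7 (0.016), Adam39 (0.019) and Mtch2 (0.020), against a median of 0.15 over all these genes. Nearest to Tbpl1 were Gabarapl1 (0.013), Crbn (0.018) and Snx2 (0.018), with a median of 0.16. Nearest to Rfx2 were Gltscr2 (0.008), Rbmxl2 (0.011) and Lmna (0.012), with a median of 0.10. The nearest of 9331 genes over 6 mice lie below the median by selection, and shared regulation was not tested.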

How the data were processed

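Polyadenylated RNA of whole testis was sequenced from 3 control and 3 inhibitor mice, grouped by the sample labels. Tools named in the submitters' processing notes are TopHat2 2.0.13, cutadapt 1.8 and Cuffdiff 2.2.1, with the build mm10. Which annotation and strand setting served for counting is not given in the sources used, and overlapping genes may share fragments. Fragments per gene and library are expected counts in the deposited table, 98.8% of them whole within 1e-06, and were rounded before testing. Values in FPKM were computed and scaled between libraries by the authors. Library totals ran from 23144295 to 43127892.

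The main test on these counts was that of edgeR 4.0.16, run under R 4.3.3 (filterByExpr, trimmed mean of M values, robust quasi-likelihood test, two-sided, Benjamini-Hochberg over 16658 genes, no block). Alternatives used DESeq2 1.42.0, limma 3.58.1 and other scalings, filters and mice. Ratios used exact permutation tests (SciPy 1.17.1). The length and GC correction removed a loess trend (span 0.5) per library, from GENCODE M21 transcripts (GRCm38, the assembly of mm10). Its version with transcripts matched to the deposited lengths was chosen after seeing the data, as were the sequence patterns.

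The members and the 19 gene lists (8 of context, 11 of markers, from general knowledge) were chosen with earlier results of these data known. Named by rule were all members, list genes past the threshold or otherwise the 3 with the smallest p, and 3 nearest neighbours in pattern. The procedure was tested on simulated data. The main test did not pair mice by their numbers.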

Additional observations from a re-analysis of the deposited data

How the results depend on the processing

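Over 19 alternatives the 9 genes' estimates kept their sign except for Gtf2a1l (-0.008 with the length and GC trend removed, -0.009 with the replicate block as well) and Rfx2 (0.019 with the trend removed for matched transcripts). The number of the 9 past the threshold was 0 except with DESeq2 (2), without the filter on low counts (1), and with 1 mouse left out (0 to 4, the 4 without inhibitor 3). Of all genes, 26 passed in edgeR (10 higher, 16 lower), and 4 higher and 23 lower with library totals alone. The count was 533 with DESeq2 (367 higher), 14 with limma-voom (3 higher), 0 with limma on log2(FPKM + 1) and 1 on log2(FPKM + 0.1). It was 115 without the filter (58 higher), 10 with at least 50 counts in 3 libraries, 15 with the trend removed for matched transcripts (8 higher), and 0 to 2405 with 1 mouse left out (2405 without inhibitor 3, 0 without control 1, control 2, inhibitor 1 or inhibitor 2). The mouse number as a replicate block gave 5 calls, or 2 with the trend removed as well, and none of the 9. Correlations of same-numbered mice were 0.096, -0.066 and 0.064. With 3 mice per group these values cannot show whether same-numbered mice had more in common than a number. Without inhibitor 3, calls among the context genes were 3 of 11 CREM and CREB partners, 2 of 5 TBPL1-dependent, 1 of 14 RFX-dependent, 0 of 8 RFX, 1 of 7 POU and 2 of 15 other regulators, where 14.3% of all genes passed. The Taf7l to Taf7 ratio ran from -0.054 to 0.002 with 1 mouse left out, turning sign without control 1; the other ratios kept their sign. By CPM per kilobase of the longest transcript 4 of the 9 genes kept their place in the order of levels. Tbp dropped from place 6 to 8, and Rfx2 and Tbpl1 changed places. Except for the transcript lengths of Tbp, the cause of these changes was not tested. Precision rests on 3 mice per group, and each of the 9 genes had at least 720 fragments in each library.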
